A study of Mus musculus with 2 samples.

Results

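The genes described here encode actin and the proteins that bind it: 45 listed genes, taken with the rule that each had at least 20 UMIs in the deposited matrix of 20282 genes. All 45 met it. The rule used no difference between conditions, and the lowest member, Limk1, had 244 UMIs. The WT pool held the thymi of 5 mice with the genotype Cdc42f/f, and the KO pool those of 5 littermates with Cre in addition (Cdc42f/f CD4Cre), all aged 6 weeks; each pool was dissociated, freed of red cells and made into 1 library of transcript 3′ ends. Both genotypes thus carried floxed Cdc42 alleles, and Cre under the CD4 promoter acts from the CD4+CD8+ (DP) stage on, so that earlier thymocytes of the KO mice kept the gene. With 1 pool for each genotype, the difference between the libraries had no replicate check, no test was made between them, and genotype cannot be told apart from library.

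Actin monomers assemble into polar filaments that push the membrane forward, carry microvilli and give the cell cortex its stiffness. Thymosins and profilin hold or deliver monomers, cofilins and their partners take filaments apart, capping proteins close the growing ends, formins, Ena/VASP and WAVE proteins start or lengthen filaments, crosslinkers and talin build networks and link them to integrins, and myosins pull on them. Cdc42 is a small GTPase that directs part of this machinery, and thymocytes rely on it when they scan antigen-presenting cells, move between thymic compartments and leave the thymus.

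The WT-labelled library held 6115 cells and 29706197 UMIs, and the KO-labelled library 7568 cells and 37920214 UMIs; 17 barcodes occurred in both. Levels are given as CPM, the UMIs of a gene scaled to a common total in each cluster and library. A UMI counts 1 captured transcript end whatever the length of the gene. The deposited clusters were named by their marker: Rag1 (5 clusters of DP-like cells), Cd5 (2 clusters of signalled DP-like cells), and Itm2a and Ms4a4b (1 cluster each of early and late CD4 or CD8 single-positive (SP)-like cells). Rag1 was at 2925 (WT-labelled) and 2755 CPM (KO-labelled) in its clusters and at 88.9 and 184 CPM in the Ms4a4b cluster, and Cd8b1 at 3467 and 3632 CPM against 582 and 624 CPM. Ms4a4b itself stood at 1591 and 1874.5 CPM in its cluster and at 323 and 137 CPM in the Itm2a cluster. These groups held 3636 and 4641, 535 and 843, 479 and 316, and 332 and 396 cells of the WT-labelled and KO-labelled library. Cdc42, the targeted gene, was at 358 and 320 CPM in the Rag1 clusters, 455 and 383 CPM in the Cd5 clusters, 397 and 383 CPM in the Itm2a cluster and 447 and 581 CPM in the Ms4a4b cluster. Transcript ends do not tell a deleted transcript from an intact one, and since Cdc42 was not lower in the last cluster it does not check the labels, so every direction rests on the library labels. The cells were clustered on all genes, members included, so that levels across clusters are a description.

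The members took 2.38% of all UMIs of the Rag1 clusters in the WT-labelled library and 2.40% in the KO-labelled library. Their share was 4.30% and 4.21% in the Cd5 clusters, 4.52% and 5.04% in the Itm2a cluster, and 4.35% and 5.49% in the Ms4a4b cluster. The share was thus higher in signalled and SP-like cells than in the Rag1 clusters in both libraries, and of these groups it differed most between the libraries in the Ms4a4b cluster. Actb alone made up 26.2% of all UMIs of the members and Tmsb4x 20.7%, followed by Pfn1 (7.38%), Tmsb10 (6.86%) and Cfl1 (5.74%).

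**Figure D1:**
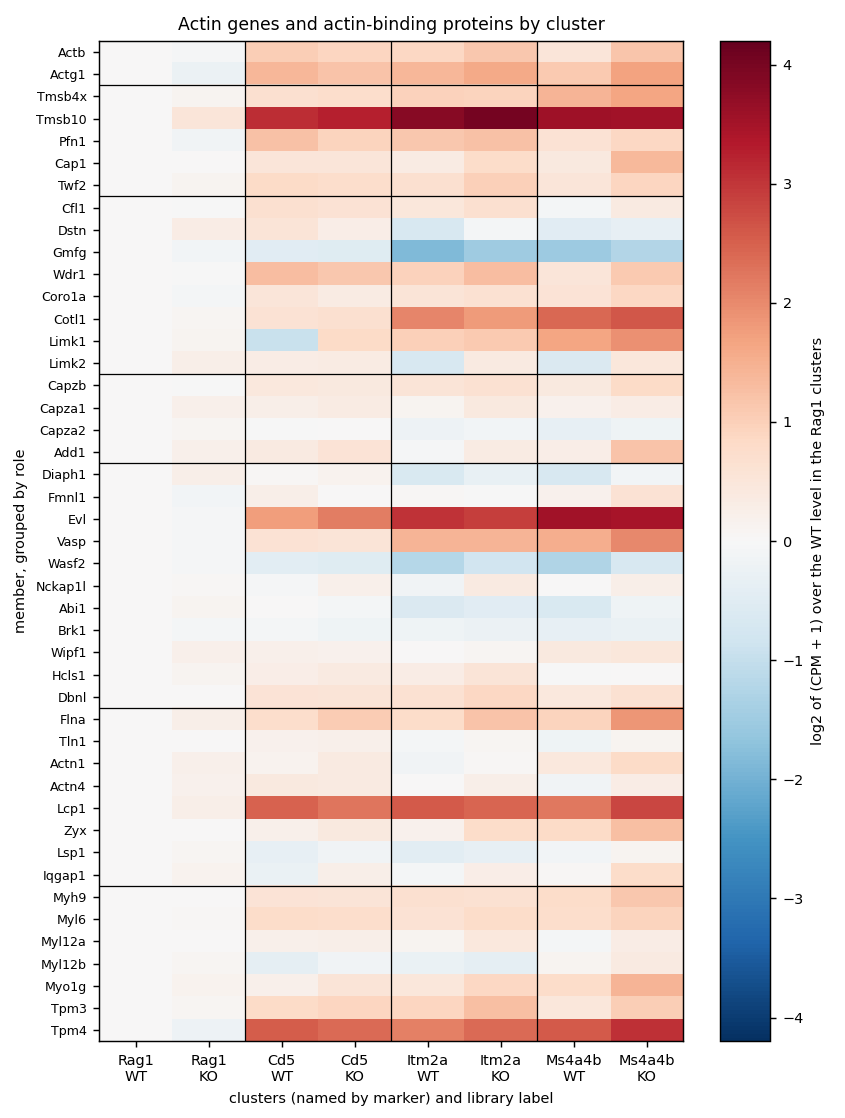
Colour shows log2 of (CPM + 1) of each member relative to its level in the Rag1 clusters of the WT-labelled library, by cluster and library label, with horizontal lines between roles and 1 value per square. Tmsb10, Evl, Lcp1, Tpm4 and Cotl1 are the reddest rows to the right, and Gmfg and Wasf2 the bluest.

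Cytoplasmic actin is encoded by Actb (β-actin) and Actg1 (γ-actin), whose proteins are nearly identical. On GRCm38, Actb lies on the minus strand of chromosome 5 from 142903115 to 142906754, and Actg1 on the minus strand of chromosome 11 from 120345690 to 120348542. Their coding sequences have 1128 bases each and differ at 128 of them (88.7% identical), but the last 300 bases of their transcripts, where these libraries read, share no run longer than 11 bases. The first 60 coding bases are shown because the proteins differ near the start; capitals mark the 9 bases that differ (GENCODE vM21 transcripts, 5′ to 3′, coding exons).
Actb: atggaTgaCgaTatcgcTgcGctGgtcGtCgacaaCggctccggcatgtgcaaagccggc
Actg1: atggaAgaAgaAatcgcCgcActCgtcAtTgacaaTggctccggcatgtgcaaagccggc

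Both actin genes had higher levels in signalled and SP-like cells than in the Rag1 clusters. Actb was at 6167 (WT-labelled) and 5953 CPM (KO-labelled) in the Rag1 clusters, and at 12497 and 11464 CPM in the Cd5 clusters. It then stood at 11180 CPM (WT-labelled) and 13601 CPM (KO-labelled) in the Itm2a cluster and at 8836 and 13782 CPM in the Ms4a4b cluster. Actb was therefore lower in the Ms4a4b than in the Cd5 clusters of the WT-labelled library, and higher in the KO-labelled one. Actg1 followed the same course at a lower level, from 666 and 563 CPM over 1742 and 1526 CPM and 1734 and 1989 CPM to 1428 and 2155 CPM. Per captured transcript, Actb exceeded Actg1 9.26 times (95% interval 9.04 to 9.49) in the Rag1 clusters of the WT-labelled library and 10.6 times (10.4 to 10.8) in those of the KO-labelled library. In the Ms4a4b cluster the ratio was 6.19 (5.96 to 6.42) and 6.40 (6.21 to 6.59), so γ-actin made up more of the actin transcripts there. Here and below, intervals are exact and cover counting error only.

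Tmsb4x and Tmsb10 encode short peptides that bind actin monomers and keep them from assembling. Tmsb4x lies on the X chromosome from 167207093 to 167209315 and Tmsb10 on chromosome 6 from 72957347 to 72958748, both on the minus strand (GRCm38). Their whole coding sequences, of 135 bases each, are shown because the balance of the pair differed widely between the clusters; capitals mark the 40 bases that differ, and the last 300 bases of the transcripts share no run over 8 bases.
Tmsb4x: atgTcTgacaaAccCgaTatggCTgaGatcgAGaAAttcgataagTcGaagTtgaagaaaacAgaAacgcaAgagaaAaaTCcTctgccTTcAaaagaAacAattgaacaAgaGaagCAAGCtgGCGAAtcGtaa
Tmsb10: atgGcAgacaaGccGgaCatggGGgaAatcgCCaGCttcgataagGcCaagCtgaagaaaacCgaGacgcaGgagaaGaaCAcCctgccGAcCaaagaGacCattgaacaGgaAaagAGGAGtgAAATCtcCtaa

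Tmsb10 stood at 534 CPM in the Rag1 clusters of the WT-labelled library and at 757 CPM in those of the KO-labelled library. The Cd5 clusters held 4568 and 5186 CPM, the Itm2a cluster 7563 and 8652 CPM and the Ms4a4b cluster 6331 and 6159 CPM. Of these 4 groups, Tmsb10 was thus highest in the early SP-like cells in both libraries. Tmsb4x went from 4994 and 5375 CPM in the Rag1 clusters to 7943 and 8340.5 CPM, then to 9796 and 9589 CPM, and reached 13390.3 and 15582 CPM in the Ms4a4b cluster. The ratio of Tmsb4x to Tmsb10 went from 9.35 (9.10 to 9.61) in the Rag1 clusters of the WT-labelled library to 1.30 (1.27 to 1.32) in its Itm2a cluster, and was 2.12 (2.07 to 2.16) in its Ms4a4b cluster. In the KO-labelled library the ratio was 7.10 (6.96 to 7.24), 1.11 (1.08 to 1.13) and 2.53 (2.48 to 2.58) at the same stages. Both libraries thus passed from a large excess of Tmsb4x to near parity and back in part.

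**Figure D2:**
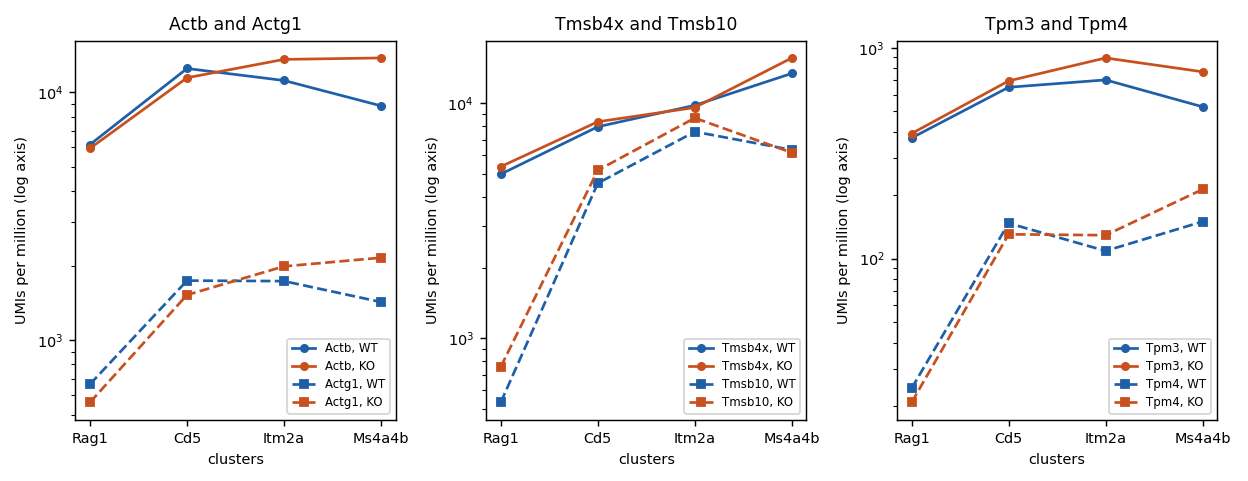
CPM on a log axis of 3 gene pairs in the 4 cluster groups, WT-labelled library in blue and KO-labelled in orange; lines only join the points of a gene, and 1 value stands at each. Tmsb10 rises from 534 and 757 CPM in the Rag1 clusters to 7563 and 8652 CPM in the Itm2a cluster, and Actb is at 8836 CPM (WT-labelled) and 13782 CPM (KO-labelled) in the Ms4a4b cluster.

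For the whole course from DP-like to late SP-like cells, each library's Ms4a4b cluster was set against its own Rag1 clusters. A gene counts as higher or lower where its log2 ratio lay at least 1 from the median of all genes with at least 100 UMIs, which was −0.43 (WT-labelled) and −0.22 (KO-labelled). In the WT-labelled library 15 of 44 members measured at that depth were higher and 1 was lower, beside 11.5% and 10.9% of all 8517 genes. In the KO-labelled library 22 of 44 were higher and 0 lower, beside 10.4% and 10.5% of 9269 genes. Some calls lay at the edge of the size used. With a pseudocount of 1, 14 (WT-labelled) and 21 members (KO-labelled) were higher, beside 11.5% and 10.2% of all genes. Of the actins, Actg1 was among the higher members in both libraries and Actb in the KO-labelled one. The members' median log2 ratio lay 0.86 and 0.97 above that of all genes. The member below the depth was Limk1 with 21 and 19 UMIs (WT-labelled) and 33 and 23 UMIs (KO-labelled) in the Rag1 and Ms4a4b clusters.

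Among the proteins that bind monomers, 3 of 5 were higher in the late SP-like cells of the WT-labelled library and 5 of 5 in those of the KO-labelled one. Here and for the roles below, the shares of all genes called higher were 11.5% and 10.4%. Besides the thymosins, Pfn1, profilin, which hands monomers to growing filaments, was at 1645 and 1501 CPM in the Rag1 clusters and highest in the Cd5 and Itm2a clusters (3869 and 3180 CPM, 3572 and 3865 CPM). Its level was 2516 and 3013 CPM in the Ms4a4b cluster. Cap1, which frees monomers from cofilin, went from 117 and 118 CPM in the Rag1 clusters to 155 CPM (WT-labelled) and 299 CPM (KO-labelled) in the Ms4a4b cluster. Twf2, a twinfilin that holds monomers and caps filament ends, went from 69.8 and 76.0 CPM to 98.8 and 131 CPM. Its log2 ratio was 0.50 (WT-labelled) and 0.78 (KO-labelled), and relative to all genes the latter only just met the size used.

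The genes of filament turnover did not share 1 course. Cfl1, cofilin, which severs filaments, was at 1435 and 1406 CPM in the Rag1 clusters, 2288 and 2190 CPM in the Cd5 clusters and 1351 and 1876 CPM in the Ms4a4b cluster. Gmfg, a relative of cofilin that takes branches off, went the other way. It was at 1488 and 1387 CPM in the Rag1 clusters, 1064 and 1034 CPM in the Cd5 clusters, 410 and 530.4 CPM in the Itm2a cluster and 515 and 638 CPM in the Ms4a4b cluster. Gmfg was the lowest of the 44 members in this comparison, with log2 ratios of −1.53 (WT-labelled) and −1.12 (KO-labelled), or −1.10 and −0.90 relative to all genes. Cotl1, a coactosin-like filament binder, rose from 80.1 and 84.9 CPM over 123 and 130 CPM and 336 and 277 CPM to 429 and 489 CPM, a log2 ratio of 2.42 and 2.53. Coro1a, coronin, on which the exit of T cells from the thymus depends, was at 1059 and 1007 CPM in the Rag1 clusters and 1576 and 1923 CPM in the Ms4a4b cluster. Wdr1, a cofactor of cofilin, peaked at 195 CPM in the Cd5 clusters of the WT-labelled library and at 197 CPM in the Itm2a cluster of the KO-labelled one. Limk1 and Limk2, the kinases that switch cofilin off, stayed low, with Limk1 between 0.52 and 10.1 CPM and Limk2 between 13.1 and 30.0 CPM over the 4 cluster groups. Dstn, destrin, a relative of cofilin, was between 15.7 and 37.7 CPM, and Cfl1 exceeded it 55.5 times in the Rag1 clusters of the WT-labelled library.

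Of the 4 capping genes, 0 were higher in the late SP-like cells of the WT-labelled library and 2, Capzb and Add1, in those of the KO-labelled one. Capzb, the β-subunit of capping protein, went from 191 and 190.3 CPM in the Rag1 clusters to 254 and 330.4 CPM in the Ms4a4b cluster. Its log2 ratio was 0.41 (WT-labelled) and 0.80 (KO-labelled), and relative to all genes the latter only just passed the size used. The α-subunits of capping protein, Capza1 and Capza2, were at 61.9 and 71.2 CPM and at 218 and 229 CPM in the Rag1 clusters. In the Ms4a4b cluster they were at 70.0 and 76.8 CPM and at 173 and 193 CPM. The subunits thus did not move together. Add1, adducin, which caps filaments and ties them to spectrin, was at 87.6 and 101 CPM in the Rag1 clusters and at 107 CPM (WT-labelled) and 204 CPM (KO-labelled) in the Ms4a4b cluster.

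Of the 11 genes of filament assembly, Evl and Vasp were higher in both libraries, and the other 9 in neither. These 2 are Ena/VASP proteins, which lengthen filaments at their growing ends. Evl was nearly absent from the Rag1 clusters, at 15.6 CPM (169 UMIs) and 14.8 CPM (228 UMIs). It reached 55.0 and 71.9 CPM in the Cd5 clusters, 134 and 123 CPM in the Itm2a cluster and 189 and 180.0 CPM in the Ms4a4b cluster. Its log2 ratio of 3.60 (3.34 to 3.86, WT-labelled) and 3.60 (3.36 to 3.84, KO-labelled) was the highest of the members. Vasp went from 67.9 and 65.3 CPM to 197 and 278 CPM.

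The 4 members of the WAVE complex, which turns Rac signals into branched filaments, gave no call in either library. Wasf2 went from 302 and 295 CPM in the Rag1 clusters to 125 and 190 CPM in the Ms4a4b cluster, a log2 ratio of −1.28 and −0.63, or −0.84 and −0.42 relative to all genes. Abi1 went from 132 and 145 CPM to 84.2 and 116 CPM, and Brk1 from 265 and 251 CPM to 208 and 217 CPM. Nckap1l (HEM1) was level, from 54.4 and 56.6 CPM to 55.4 and 64.0 CPM. The formin Diaph1, which spins out unbranched filaments, went from 224 and 265 CPM to 139 and 206 CPM, and the formin Fmnl1 from 93.7 and 86.8 CPM to 107 and 143 CPM. Wipf1, the partner that stabilises WASP, Hcls1, the haematopoietic cortactin, and Dbnl, a link between actin and the antigen receptor, were within 68.3 to 193 CPM at all 4 stages.

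Crosslinking and adhesion genes were higher in late SP-like cells for 3 of 8 members in each library, Lcp1, Flna and Zyx. Lcp1, L-plastin, which bundles filaments in leukocytes, made its step between the Rag1 and the Cd5 clusters, from 69.6 and 82.6 CPM to 392 and 335 CPM, and was at 424 and 384 CPM in the Itm2a cluster. Flna, filamin A, which joins filaments at right angles and binds integrin tails, was at 72.9 and 87.4 CPM in the Rag1 clusters and at 141 and 264 CPM in the Ms4a4b cluster. Zyx, zyxin of adhesion sites, went from 43.8 and 44.8 CPM to 76.4 and 107 CPM. Tln1, talin, which activates integrins, was nearly level, at 371 and 377 CPM in the Rag1 clusters and 325 and 404 CPM in the Ms4a4b cluster. The α-actinins parted from each other: Actn1 exceeded Actn4 2.28 times (2.08 to 2.50) in the Rag1 clusters and 3.44 times (2.82 to 4.21) in the Ms4a4b cluster of the WT-labelled library, and 2.29 and 3.23 times in the KO-labelled one. Lsp1, a filament binder of lymphocytes, was between 413 and 611 CPM, and Iqgap1, a scaffold that binds active Cdc42 and Rac1, between 161 and 329 CPM.

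Among the motors and tropomyosins, 4 of 7 members (WT-labelled) and 5 of 7 (KO-labelled) were higher in the late SP-like cells. Tpm4, a tropomyosin that coats filaments, stepped from 24.3 and 20.8 CPM in the Rag1 clusters to 147 and 130.4 CPM in the Cd5 clusters and ended at 150 and 213 CPM. Tpm3 had the higher level throughout, and its excess over Tpm4 shrank from 15.4 times (13.6 to 17.5) to 3.50 times (3.11 to 3.96) in the WT-labelled library. Myh9, the heavy chain of non-muscle myosin II, went from 229 and 232 CPM to 391 and 499 CPM, its light chain Myl6 from 677 and 698 CPM to 1121 and 1294 CPM, and the membrane-bound Myo1g from 31.7 and 35.1 CPM to 54.5 and 87.4 CPM. The regulatory light chains Myl12a (330 and 334 CPM in the Rag1 clusters) and Myl12b (231 and 244 CPM) were nearly level. Their coding sequences are 96.5% identical and their transcripts share a run of 131 bases in the last 300. A read within that run does not tell the genes apart, so each value is uncertain.

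The libraries were then compared within each cluster group, all of them at stages at which Cre is active. A gene counts as higher or lower in the KO-labelled library where its log2 ratio lay at least 0.5 from the median of all genes with at least 100 UMIs. That median was 0.04 in the Rag1 clusters, 0.03 in the Cd5 clusters, 0.15 for Itm2a and 0.23 for Ms4a4b. Ribosomal protein genes took 24.3% of UMIs in the Itm2a cluster of the WT-labelled and 17.8% in that of the KO-labelled library, and 31.0% and 22.2% in the Ms4a4b cluster, so that CPM of other genes lay higher in the KO-labelled SP-like cells. In the Rag1 clusters these shares were 14.4% and 13.6%.

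**Figure D3:**
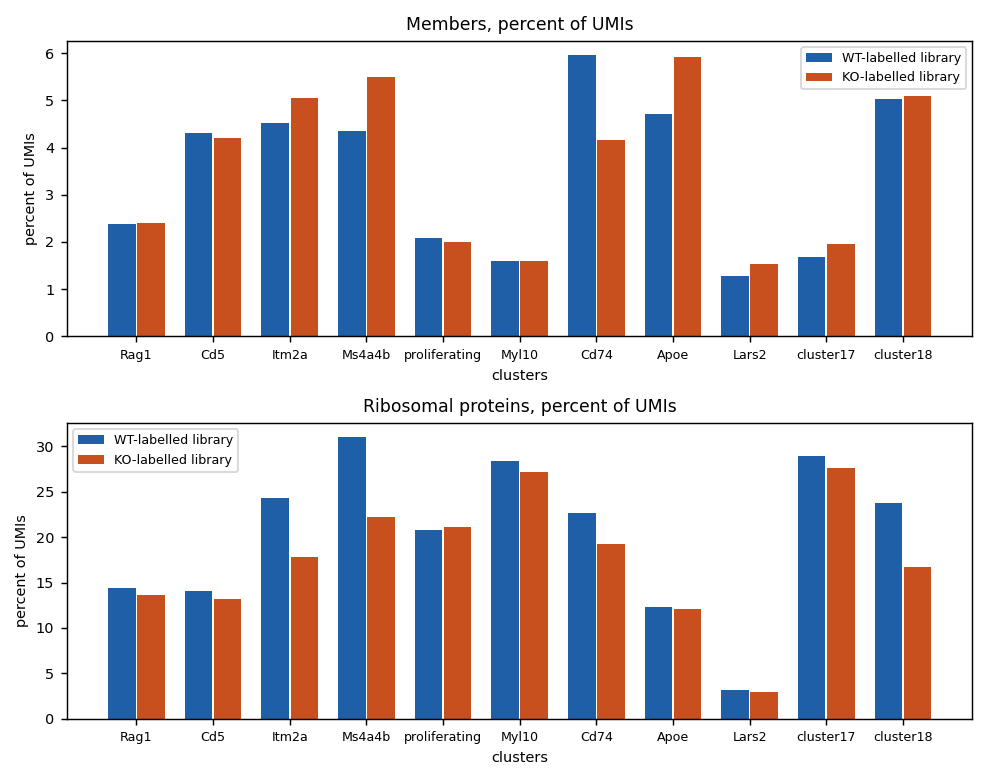
Bars give the percent of UMIs of each cluster group that fell on the 45 members (upper) and on ribosomal protein genes (lower), for the WT-labelled (blue) and KO-labelled library (orange), 1 value each. In the Ms4a4b cluster the members take 4.35% and 5.49%, and ribosomal proteins 31.0% and 22.2%.

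In DP-like cells no member passed the size used. In the Rag1 clusters 0 of 44 members were higher, beside 2.23% of all 9907 genes, and 0 were lower, beside 1.21%. The members' median lay 0.02 above that of all genes. Tmsb10 came nearest, with a log2 ratio of 0.50 (0.46 to 0.55), or 0.46 relative to all genes, and its ratio was above 0 in each of the 5 clusters (0.40 to 0.64). Actg1 was at the other end, at −0.24 (−0.29 to −0.20), and below 0 in each of the 5 clusters.

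In the Cd5 clusters, again, 0 of 44 members were higher and 0 lower, where 3.22% and 1.39% of all 6186 genes were, and the members' median lay 0.03 below that of all genes. Iqgap1, at 161 (WT-labelled) and 228 CPM (KO-labelled), had the highest log2 ratio, 0.50 (0.31 to 0.69), or 0.47 relative to all genes. Pfn1 was at 3869 and 3180 CPM there, a log2 ratio of −0.28 (−0.33 to −0.24). Flna had 0.35 (0.13 to 0.58) and Evl 0.38 (0.05 to 0.73), both under the size used.

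Early SP-like cells also gave no call among the members. Of 42 members with the depth, 0 were higher and 0 lower, beside 3.54% and 6.02% of all 5793 genes, and their median lay 0.05 above that of all genes. Zyx, at 49.5 and 76.0 CPM, had the highest log2 ratio of these, 0.62 (0.28 to 0.96), or 0.47 relative to all genes. Cotl1, at 336 and 277 CPM, had the lowest, −0.28 (−0.43 to −0.12), or −0.43 relative to all genes. Nckap1l had 0.52 (0.17 to 0.87), Flna 0.45 (0.23 to 0.67), Cap1 0.42 (0.22 to 0.63) and Actb 0.28 (0.26 to 0.31), so that several members already lay above 0 on the CPM scale, as the median gene did. Dstn, Limk1 and Limk2 had too few UMIs to be judged, Limk2 with 40 and 53.

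Among members with the depth, the differences past the size used were all in late SP-like cells. In the Ms4a4b cluster 4 of 43 members were higher in the KO-labelled library, Limk2, Cap1, Add1 and Flna, beside 7.98% of all 5414 genes, and 0 were lower, beside 9.59%. A share of 4 in 43 is close to that of all genes, and the members' median lay 0.16 above it. Cap1 had 361 and 677 UMIs, 155 and 299 CPM, a log2 ratio of 0.95 (0.76 to 1.13), or 0.72 relative to all genes. Add1 had 250 and 463 UMIs, 107 and 204 CPM, a log2 ratio of 0.93 (0.70 to 1.16), or 0.70. Flna had 329 and 598 UMIs, 141 and 264 CPM, a log2 ratio of 0.90 (0.70 to 1.10), or 0.67. These 3 thus had ratios within each other's intervals. Limk2 rested on 32 and 68 UMIs, with a log2 ratio of 1.11 (0.50 to 1.78), or 0.89 relative to all genes. It had a similar value, 1.10 (0.48 to 1.73), in the Itm2a cluster, where only its depth kept it from a call. With each cell thinned to 1000 UMIs, 9 of 31 members were higher, beside 12.2% of the 1030 genes then measured. In the cells with Cd4 UMIs without Cd8 UMIs 10 of 35 were, beside 10.2% of 1339 genes. In the cells with Cd8 UMIs without Cd4 UMIs 5 of 40 were, beside 10.6% of 1984 genes, again close to the share of all genes. Iqgap1 fell just short, at 199 and 329 CPM, with 0.73 (0.56 to 0.90), or 0.50 relative to all genes.

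The genes with most transcripts moved less than these. Actb had a log2 ratio of 0.64 (0.62 to 0.67) in the Ms4a4b cluster, or 0.41 relative to all genes, and Actg1 0.59 (0.53 to 0.66), or 0.36. Tmsb4x, at 0.22 (0.20 to 0.24), lay at −0.01 relative to all genes, and Pfn1, at 0.26 (0.21 to 0.31), at 0.03. The ratio of both actins thus lay above that of these monomer binders. Tmsb10, at −0.04 (−0.07 to −0.01), and Evl, at −0.07 (−0.26 to 0.13), were the lowest members relative to all genes, at −0.27 and −0.30. Myo1g (0.68), Wasf2 (0.61), Wdr1 (0.59), Lcp1 (0.58), Diaph1 (0.56), Tpm3 (0.55), Tpm4 (0.51) and Vasp (0.50) lay 0.27 to 0.45 above the median of all genes. By role, the median relative to all genes was 0.39 for the actins, 0.24 for crosslinking and adhesion genes, with 8 of 8 above that median, 0.16 for turnover and for myosins and tropomyosins, 0.04 for capping, 0.03 for monomer binders and −0.00 for assembly.

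**Figure D4:**
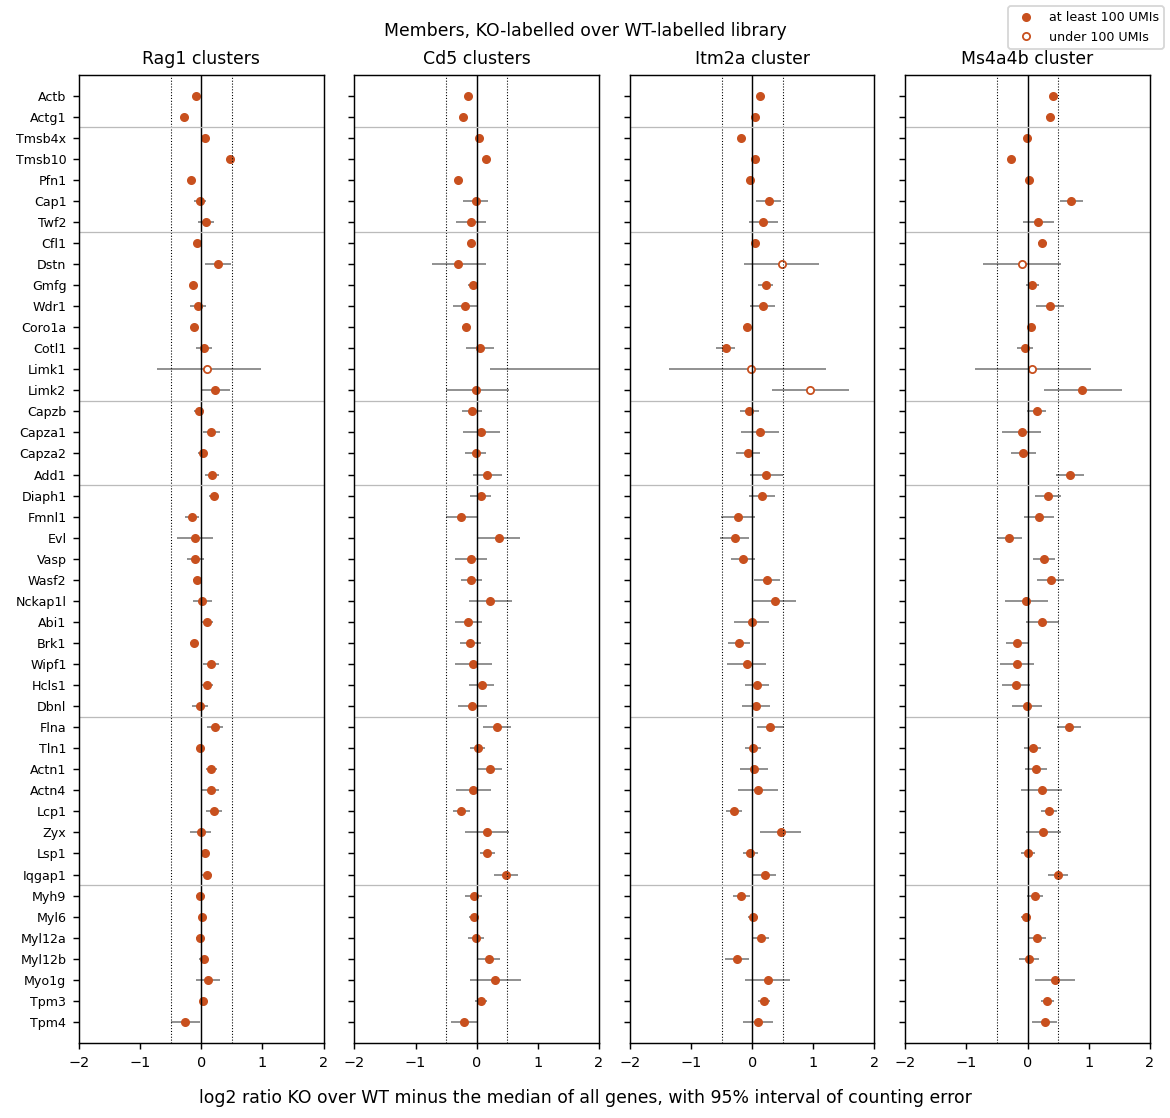
Each point is a member's log2 ratio of KO-labelled over WT-labelled CPM minus the median of all genes, with the 95% interval of counting error, in the 4 cluster groups; open points rest on under 100 UMIs, dotted lines stand at 0.5 and −0.5, and Limk1 in the Cd5 clusters (1 and 14 UMIs) lies off the axis. Only Cap1, Add1, Flna and Limk2 pass a dotted line on 100 UMIs or more, all in the Ms4a4b cluster.

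Other measures moved with the Ms4a4b cluster. Its KO-labelled cells had a median of 5032 UMIs and the WT-labelled ones 6737.5. Markers of mature SP cells did not move together. Klf2, a factor of thymic exit, was at 679 and 1626 CPM, and S1pr1, the exit receptor, at 261 and 643 CPM, while Ccr7 was at 252 and 197 CPM and Il7r at 249 and 206 CPM, and Ms4a4b lay 0.01 from the median of all genes. Klf2 was also higher in the KO-labelled library in the Rag1 (8.47 and 29.3 CPM) and Cd5 clusters (9.95 and 65.2 CPM). The WT-labelled cells were also weighted to the maturation scores of the KO-labelled cells. The score is the share of late among late and early SP marker UMIs of a cell, with Klf2 and S1pr1 among the late ones. So weighted, Cap1 lay at 0.69, Add1 at 0.68, Flna at 0.64, Limk2 at 1.01 and Actb at 0.39 relative to all genes. Since Klf2 and S1pr1 themselves differed between the libraries, the score cannot tell stage from library. The part of maturation in these ratios was therefore not tested. Rag1 was at 88.9 and 184 CPM, and the summed level of 7 macrophage markers at 6.9 CPM (4 of 7 with a UMI, C1qa, C1qc and Adgre1 at 0) and 38.8 CPM (6 of 7, Adgre1 at 0). Markers of B cells (27.5 and 21.6 CPM), dendritic cells (15 and 17.6 CPM), thymic epithelium (27.5 and 25.1 CPM) and red cells (4.7 and 0.9 CPM) were low in both libraries, and the platelet marker in the matrix, Pf4, was at 0. The part of depth, free RNA and other cells in the members' ratios was not tested.

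SP-like cells were also grouped by the coreceptor transcripts they held. In the Ms4a4b cluster 76 WT-labelled and 90 KO-labelled cells had Cd4 UMIs without Cd8 UMIs, and 106 and 97 the reverse. Actb had a log2 ratio of 0.90 (0.84 to 0.95) in the former and 0.60 (0.56 to 0.65) in the latter. Cap1 had 0.93 and 0.99, and Flna 1.04 and 1.00, so that these hardly differed between the kinds of cells. Add1 had 1.62 (1.11 to 2.17) and 0.84 (0.43 to 1.26), with intervals that overlap. Of 42 members with 20 UMIs or more in each kind, 37 had a ratio above 0 in both, 1 below 0 in both and 4 of opposite sign, on the CPM scale on which the median gene was also above 0. In the Itm2a cluster 17 of 42 were of opposite sign. The shares of all genes were not computed for these counts of signs. Zyx had 1.49 (0.72 to 2.30, from 24 and 38 UMIs) in the cells with Cd4 UMIs and −0.03 (−0.75 to 0.62) in those with Cd8 UMIs. Cotl1 was at 467 and 225 CPM in the cells with Cd8 UMIs, a log2 ratio of −1.05 (−1.42 to −0.71), and at 328 and 293 CPM in the cells with Cd4 UMIs, −0.16 (−0.46 to 0.13). The make-up of this cluster also differed, with 194 of 479 WT-labelled and 64 of 316 KO-labelled cells in the highest of 5 bins of the score. Ms4a4b, Ccr7 and Il7r lay at −1.39, −0.71 and −0.56 relative to all genes. Klf2 went the other way, at 157 CPM (WT-labelled) and 255 CPM (KO-labelled) in the Itm2a cluster. S1pr1 was lower in the KO-labelled library there, on only 58 (WT-labelled) and 21 UMIs (KO-labelled). The late markers thus did not move together in the Itm2a cluster either. Weighted to the scores of the KO-labelled cells, Cotl1 of the Itm2a cluster lay at −0.21, against −0.43 unweighted. It lay at 0.06 in the cluster with the highest Itm2a level at resolution 1.8. That cluster held only 173 WT-labelled and 186 KO-labelled cells, so it is not the same set of cells. The weighting was not made within the cells with Cd8 UMIs. Klf2 is part of the score and differed between the libraries in this cluster too, so the score cannot tell stage from library. The part of maturation in the ratio of Cotl1 was not tested.

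**Figure D5:**
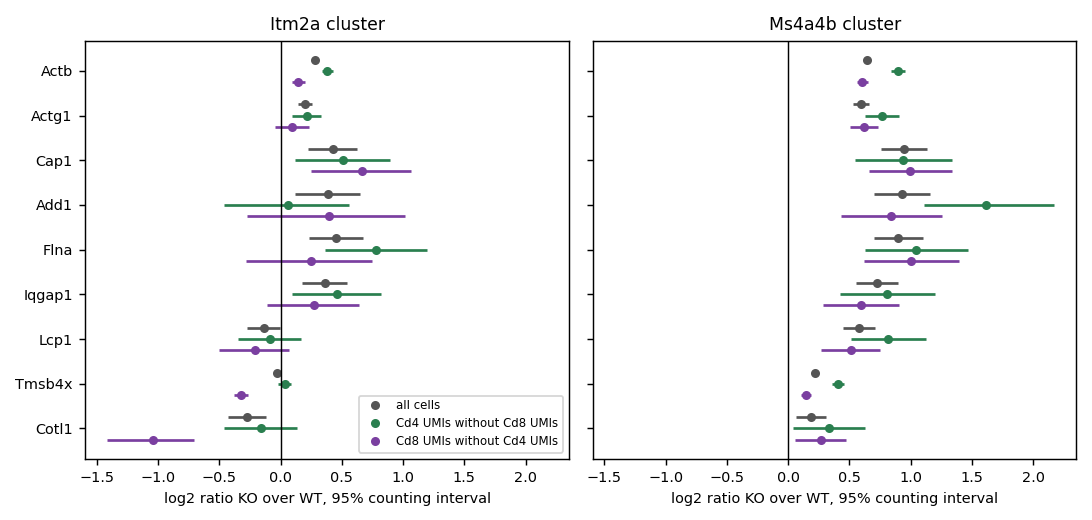
Points are log2 ratios of KO-labelled over WT-labelled CPM for 9 members in the Itm2a and Ms4a4b clusters, over all cells (grey), cells with Cd4 UMIs without Cd8 UMIs (green) and the reverse (purple); lines are 95% intervals of counting error. In the Ms4a4b cluster all points lie to the right of 0, and in the Itm2a cluster Cotl1 lies at −1.05 in the cells with Cd8 UMIs.

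Other genes that act on actin were read beside the members. Log2 ratios of these genes are counted from that of the median gene. Of the 9 Arp2/3 subunits, which nucleate branches, 0 were higher and 0 lower in the Ms4a4b cluster, beside 7.98% and 9.59% of all genes, with a median of 0.18. The 3 highest were Actr2 (201 and 322 CPM, 0.45), Arpc5 (357 and 545 CPM, 0.38) and Arpc2 (747 and 1028 CPM, 0.23), and the 3 lowest Arpc5l (−0.19), Arpc1a (−0.19) and Arpc1b (0.14). Of 35 measured other actin regulators, 10 were higher and 1 lower, beside the same shares of all genes. Sptan1, the spectrin that adducin joins to actin, led at 81.6 and 216 CPM (1.17), then Flii (0.82) and Iqgap2 (0.69), and the lowest were Abi3 (−0.62), Fermt3 (−0.29) and Pstpip1 (−0.28). Over the course from the Rag1 to the Ms4a4b clusters, 2 of 9 Arp2/3 subunits and 11 of 43 other regulators were higher in the WT-labelled library, and 0 and 5 lower, beside 11.5% and 10.9% of all genes. In the KO-labelled library 3 of 9 and 16 of 49 were higher, and 0 and 4 lower, beside 10.4% and 10.5% of all genes.

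Actin genes are known targets of serum response factor, whose activity follows the pool of free actin and which binds the CArG box, 2 C and 2 G with 6 A or T between them. Promoter windows from 250 bases before to 50 bases after the start were given for 39 of the 45 members (RefSeq, GRCm38.p6). The box was found in 2 of their 53 windows (3.77%) and in 535 of all 32851 windows of that length (1.63%), and the search is the same on both strands. The matches were in Actg1, 90 bases before the start site, and in 1 window of Myl6, 50 bases before it. They are shown with their flanks, the box in capitals (chr11:120348551-120348610 and chr10:128493025-128493084, both on the minus strand).
Actg1: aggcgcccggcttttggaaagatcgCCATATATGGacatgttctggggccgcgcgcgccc
Myl6: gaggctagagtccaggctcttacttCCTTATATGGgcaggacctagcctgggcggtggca

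Outside this course, several members stood at other levels. Summed over the 4 clusters of proliferating cells (Top2a at 1748 and 1743 CPM), Tmsb4x was at 2767 and 2740.0 CPM, below its level in the Rag1 clusters, as were Lsp1 (217 and 224 CPM), Gmfg (614 and 564 CPM) and Wipf1 (28.9 and 33.3 CPM). The clusters were not alike: 1 of the 4 held 7341 and 8328 CPM of Tmsb4x, 1527 and 1416 CPM of Gmfg and 548 and 679 CPM of Lsp1. Its Tmsb4x and Gmfg lay above the summed Rag1 clusters, though single Rag1 clusters held up to 1585 and 1503 CPM of Gmfg. The other 3 held 1575 to 2764 CPM of Tmsb4x. Actg1 (931.6 to 1556 CPM) and Tpm4 (47.9 to 77.5 CPM) were above the Rag1 clusters in each of the 4. In the Apoe cluster, 30 and 49 cells led by a macrophage gene, Tmsb4x reached 26512 and 34577 CPM with Tmsb10 at 568 and 575 CPM, and Dstn was at 307 and 533 CPM, so that Cfl1 exceeded it only 3.85 times (2.06 to 7.72) and 2.03 times (1.36 to 3.07). Capza2 was at 828 and 828 CPM there, and Evl at 47.3 and 84.2 CPM. The Cd74 cluster, 63 and 87 cells that led in a gene of antigen presentation, held the most Lsp1 of the groups (1114 and 1036 CPM) and had Tmsb4x at 29047 and 16369 CPM. Both of these clusters rest on few cells.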

How the data were processed

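Single-cell libraries of pooled thymi were deposited as a matrix of raw UMI counts per gene and cell, which the authors made with Cell Ranger 3.0.2, STAR and Seurat on mm10, per the submitters' processing notes, after removing cells by their gene and read numbers. The annotation is not given in the sources used here. A column of mitochondrial percent, also deposited, holds only 0 and was left aside. Cells of each deposited Seurat cluster (resolution 1.5, 19 clusters) were summed by library, read from WT or KO in the name of each cell (these names say Cdc45 where the labels say Cdc42). All 13683 cells were kept (203 to 5985 genes and 498 to 47064 UMIs each), and no doublet caller was run.

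CPM, log2 ratios (pseudocount 0.5) and their distance from the median of all genes with at least 100 UMIs over both sides were computed in Python 3.11.15 (numpy 2.4.6, scipy 1.17.1, pandas 2.3.3, matplotlib 3.10.9). Calls are by size, at 0.5 between libraries and 1 between clusters. Intervals are exact conditional binomial intervals at 95% and cover counting error only, so that precision follows the number of UMIs. With 1 library for each condition no test was made, and cells were not used as replicates. R 4.3.3 gave the TMM factors of edgeR 4.0.16 and the size factors of DESeq2 1.42.0 as alternative scalings only. Other alternatives changed the minimum of UMIs, the pseudocount, the cells kept, the clusters and the depth. The calculation was tested on simulated data.

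Named genes are the 45 members, the 3 highest and 3 lowest of each further list of actin regulators in the Ms4a4b cluster with at least 100 UMIs, Cdc42 and the cluster markers. The results of 1 gene list are not reported here. The members, lists and rules were chosen with earlier results of these data known. Coding sequences and gene positions come from GENCODE vM21 on GRCm38 and promoters from RefSeq on GRCm38.p6, which lists no window for Actb, Diaph1, Twf2, Nckap1l, Lsp1 and Cotl1.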

Additional observations from a re-analysis of the deposited data

How the results depend on the processing

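No paired analysis was possible because each condition is 1 pooled library. Of 3123 values of single genes under the alternatives, 2850 stayed within the counting interval of the reported value, 273 left it, and 0 called values changed sign. The 2850 include the values under TMM, DESeq2 and totals without ribosomal and mitochondrial genes. These scalings could not move a value, because each is centred on all genes, so the count overstates how stable the values are. The number of members higher in the KO-labelled library in the Ms4a4b cluster was 9 with cells thinned to 1000 UMIs (members' median 0.30 relative to all genes) and 10 in cells with Cd4 UMIs without Cd8 UMIs (median 0.36), against 4 (0.16) as reported. In cells with Cd8 UMIs without Cd4 UMIs it was 5 of 40 (median 0.15), beside 10.6% of all genes. With each cell given the same weight it was 5 of 43 (0.24), beside 8.98%. In the Itm2a cluster 0 members were reported as higher. There 1 of 45 was with a minimum of 20 UMIs and with no minimum, beside 8.55% and 22.6% of all genes. At resolution 1.8 and with weighting to the maturation scores 1 of 42 was, beside 3.50% and 3.42%. With thinning 2 of 30 were, beside 3.44%. In cells with Cd4 UMIs without Cd8 UMIs 3 of 37 were, beside 4.97%. In cells with Cd8 UMIs without Cd4 UMIs 1 of 34 was higher and 4 lower, beside 6.31% and 8.64%. The median in these cells was −0.13. In the Cd5 clusters 1 of 45 was higher with no minimum and 1 of 38 with thinning, beside 22.6% and 3.42%. With no minimum, 2 of 45 members (WT-labelled) and 1 of 45 (KO-labelled) were lower in the Ms4a4b than in the Rag1 clusters. The shares of all genes were 16.2% and 13.7%. The cause was not tested. Before centring on all genes, the members' median log2 ratio in the Ms4a4b cluster was 0.39 with total UMIs, 0.22 without ribosomal and mitochondrial genes, 0.13 with the factors of TMM and 0.16 with those of DESeq2, and the relative values are the same under all of these. Limk1 and Dstn were too shallow in SP-like cells for a call, and Limk2 rests on 100 UMIs in the Ms4a4b cluster.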
